A study of Homo sapiens with 9 samples.

Results

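The genes described here encode the proteasome and the factors that put it together. They were chosen by name: every row of the expression table that names a single gene whose symbol is PSMA, PSMB, PSMC, PSMD, PSME, PSMF or PSMG followed by a number, with no further letters. This gave 45 genes of the 17958 analysed, and a gene with several probe sets was represented by the brightest of them on average over the 9 arrays. PSMC5, PSMD7 and PSMD13, which encode subunits of the regulatory cap, are not analysed here. PSMC3IP and PSME3IP1 carry a proteasome name but encode interacting proteins, and were left out.

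Human HCT 116 cells, an established colorectal cancer line of epithelial origin, were transiently transfected with 1 of 3 vectors and their total RNA was extracted 24 hours later. The control group received the empty plasmid pcDNA3, the KL-FL group a vector for mouse full-length klotho, and the KL1 group a vector for the mouse klotho subdomain KL1. Each group had 3 arrays labelled from 100 ng of RNA, and the labels do not say which arrays were transfected with JetPEI and which with polyethylenimine. Klotho is a membrane protein known as a co-receptor for the hormone FGF23, and the series title places the study in the context of the unfolded protein response. The labels do not state that replicates were separate cultures, so the p-values reflect array-to-array spread only, and that spread may be technical. In bulk RNA, fewer cells of a type and less RNA per cell cannot be told apart.

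The proteasome is the protease that degrades proteins tagged with ubiquitin, among them misfolded proteins pulled back out of the endoplasmic reticulum. Its barrel-shaped core particle is built of alpha rings, which gate the entrance, and beta rings, which hold the active sites. A regulatory cap of ATPases and non-ATPase subunits binds the ubiquitin tag, removes it and unfolds the substrate, while other activators open the core without ATP and dedicated chaperones guide assembly. When proteasome activity falls short, cells raise most subunit genes together through the transcription factor NFE2L1, also called NRF1, which binds antioxidant response elements in their promoters. Interferon instead swaps the 3 catalytic beta subunits PSMB5, PSMB6 and PSMB7 for PSMB8, PSMB9 and PSMB10, giving the immunoproteasome.

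All values are log2 expression values from 1 deposited table, which ran from 1.79 to 12.4, and a difference of 0.2 on that scale is a 1.15-fold change. The third KL-FL array, replicate 3, was unlike the rest: its deviations from its group mean had an SD over all genes of 0.0936, against 0.0514 to 0.0785 on the other 8, and its median correlation with them was 0.997, the lowest of the 9. Some KL-FL differences of a single gene, at the probe set used, moved by over 1.5 times or turned their sign without this array. Such differences are given below with and without it. Medians by promoter motif and counts over genes outside the naming rule include this array. The epithelial markers EPCAM, KRT8, KRT18, KRT19, CDH1, CLDN4, CLDN7 and ELF3 read between 7.17 and 10.8 on all arrays. The 5 leukocyte markers measured stayed between 2.70 and 4.13, and the 7 stromal and endothelial markers between 2.54 and 5.94. Without detection calls a low reading cannot be told from an absent transcript. In 15 of the 45 proteasome genes 1 value stood on at least 3 arrays to the last deposited digit, as it did in 44.1% of all genes, so their spread rests on fewer distinct readings.

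The proteasome genes of these cells stayed close to their control level after transfection with either klotho vector. With KL-FL their log2 differences from control ran from -0.24 for PSMG3 to 0.15 for PSMD11, and with KL1 from -0.10 for PSMD3 to 0.16 for PSMG4. As fold changes the same extremes are 0.850 and 1.11 with KL-FL and 0.932 and 1.12 with KL1. No member passed the limma test over all genes in either comparison (smallest adjusted p = 0.689 with KL-FL and 0.927 with KL1), where 1 gene in the whole table, or 0.00557%, passed in each. At an unadjusted p under 0.05 1 member was lower with KL-FL, PSMD3, where 2.28% of all genes were lower, 4.88% higher and 7.16% either. With KL1 1 member was higher, PSMG4, where 2.99% of all genes were higher, 2.11% lower and 5.1% either. Each is 2.22% of the members. In a fit blocked on replicate number 0 genes of the table passed in either comparison. With array weights 523 of 17958 genes passed for KL-FL and 2 for KL1, none of them a proteasome gene. At these shares of the table a count of 0 among 45 members does not set the members apart. The weights were 6.76, 0.554 and 0.265 for KL-FL replicates 1 to 3, so the weighted KL-FL mean rests mostly on replicate 1.

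The intervals show how precisely each difference was measured, given the spread between arrays. The 95% interval of the difference, unadjusted for the number of genes, had a half-width from 0.061 for PSMB8 to 0.24 for PSMD11 and a median of 0.11 over the 45 members. With KL-FL no interval reached below -0.48, for PSMG3, or above 0.39, for PSMD11, which are 0.719-fold and 1.31-fold. With KL1 the outermost limits were -0.31 for PSMG3 and 0.34 for PSMA5, or 0.806-fold and 1.27-fold. The whole interval lay within 0.2 of no difference for 30 members with KL-FL and for 33 with KL1.

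**Figure D1:**
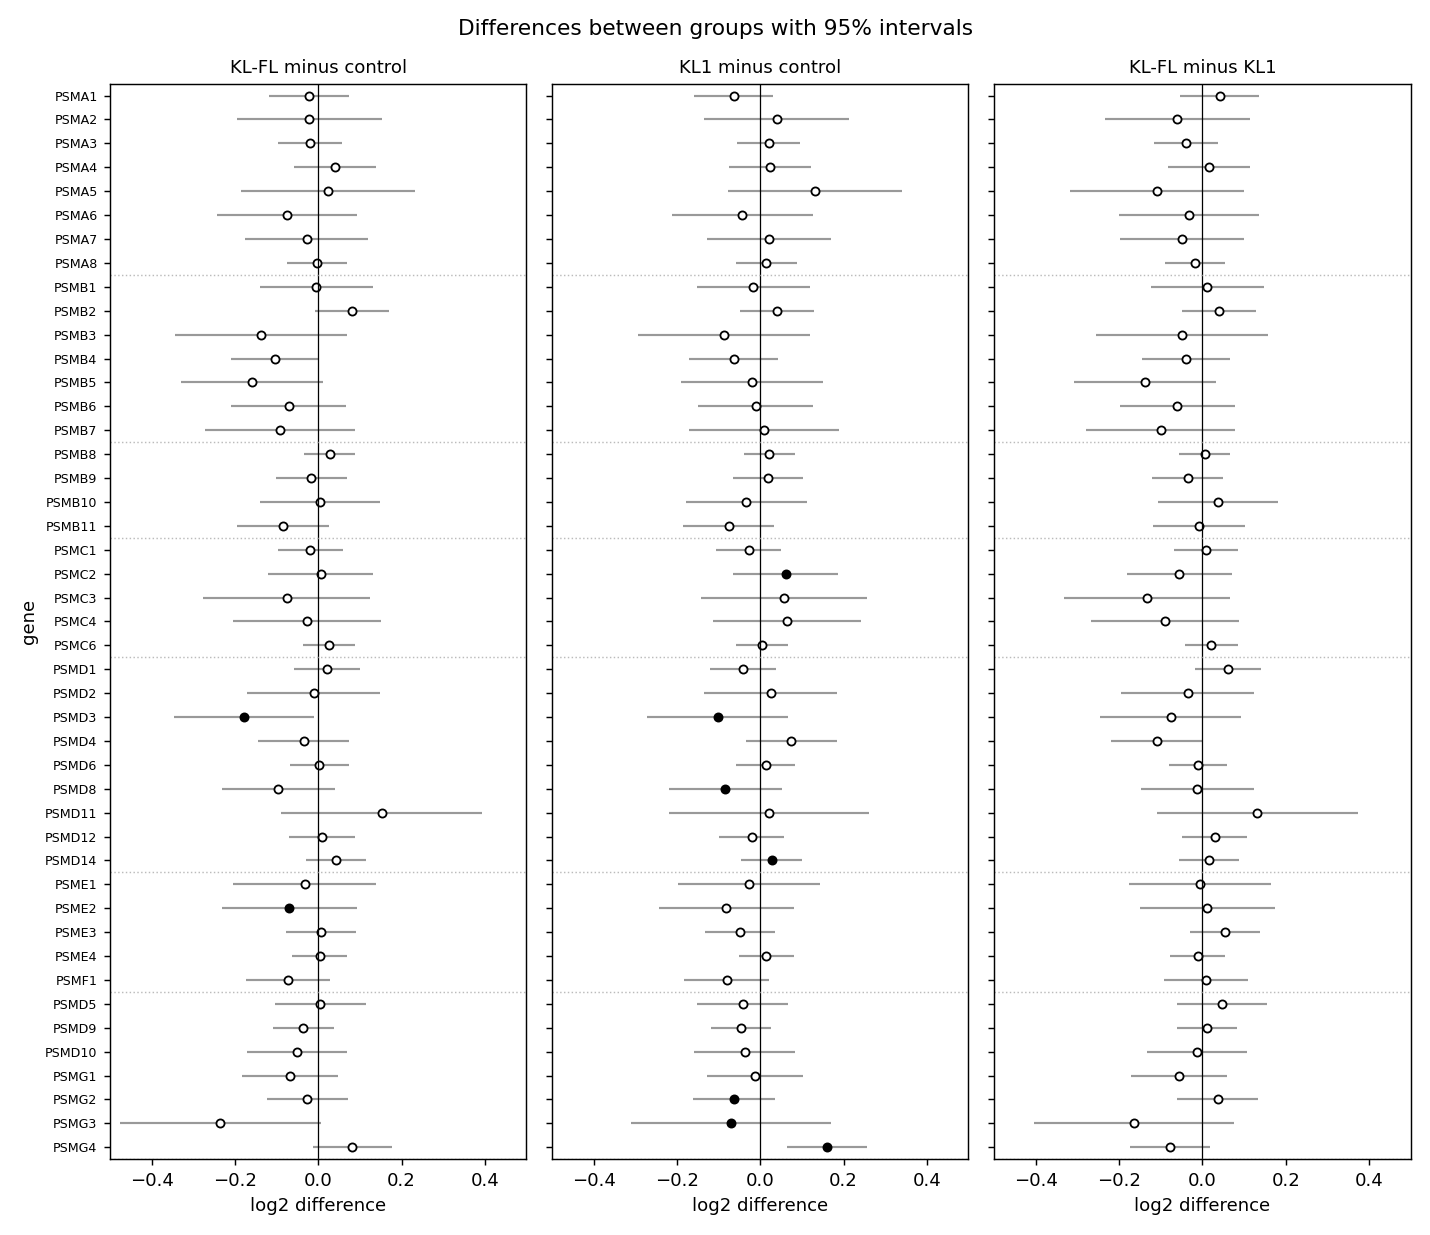
Log2 difference (horizontal axis) of each of the 45 proteasome genes (rows, in role order from the alpha ring to the assembly chaperones) in 3 panels, each klotho vector less control and then KL-FL less KL1, as points with 95% intervals. Filled points mark genes whose arrays did not overlap between the groups compared, 2, 7 and 0 genes. The intervals that stay clear of 0 are those of PSMD3 with KL-FL, PSMG4 with KL1 and PSMD4 between the klotho vectors, and PSMD11 has the widest.

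By direction, 29 of the 45 members were lower with KL-FL, or 64.4%, against 42.6% of all genes, and their median difference was -0.022 against 0.0099 over all genes. With each array centred on its median the count was 35. The lean was largest on 1 array. On KL-FL replicate 3, 37 of the 45 members lay below their control mean and 27 below every control array, whereas on KL-FL replicates 1 and 2 the counts below the control mean were 18 and 14. The median shift of the members from control was 0.0027 on replicate 1, 0.021 on replicate 2 and -0.083 on replicate 3, where the medians over all genes were 0.0079, 0.024 and -0.0049. Without replicate 3 only 17 of the 45 members were lower, with a median of 0.017, next to 0.019 over all genes. Without KL-FL replicate 2 the count was 34 and the median -0.053.

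The lower readings on KL-FL replicate 3 were not shared evenly. The constitutive beta subunits had a median shift of -0.21 on that array, the activators and the inhibitor -0.14, the ATPases -0.13, the assembly chaperones -0.12, the alpha ring -0.076, the immune and thymic beta subunits -0.039 and the non-ATPase subunits -0.027. The lowest member was the assembly chaperone PSMG3 at -0.52, while PSMD11 stood 0.066 above its control mean. For 24 of the 45 members this array gave the lowest of the 9 readings. Other genes moved on it as well, though not all. The median shift was -0.16 for the 8 epithelial markers, -0.095 for the ubiquitin and shuttle genes and -0.18 for the class I presentation genes. It was -0.043 for the NRF1 axis, -0.039 for the leukocyte markers and -0.019 for the 12 partners of the proteasome. The stromal and endothelial markers stood at 0.021, and all genes at -0.0049. The part of array quality in these readings was not tested.

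**Figure D2:**
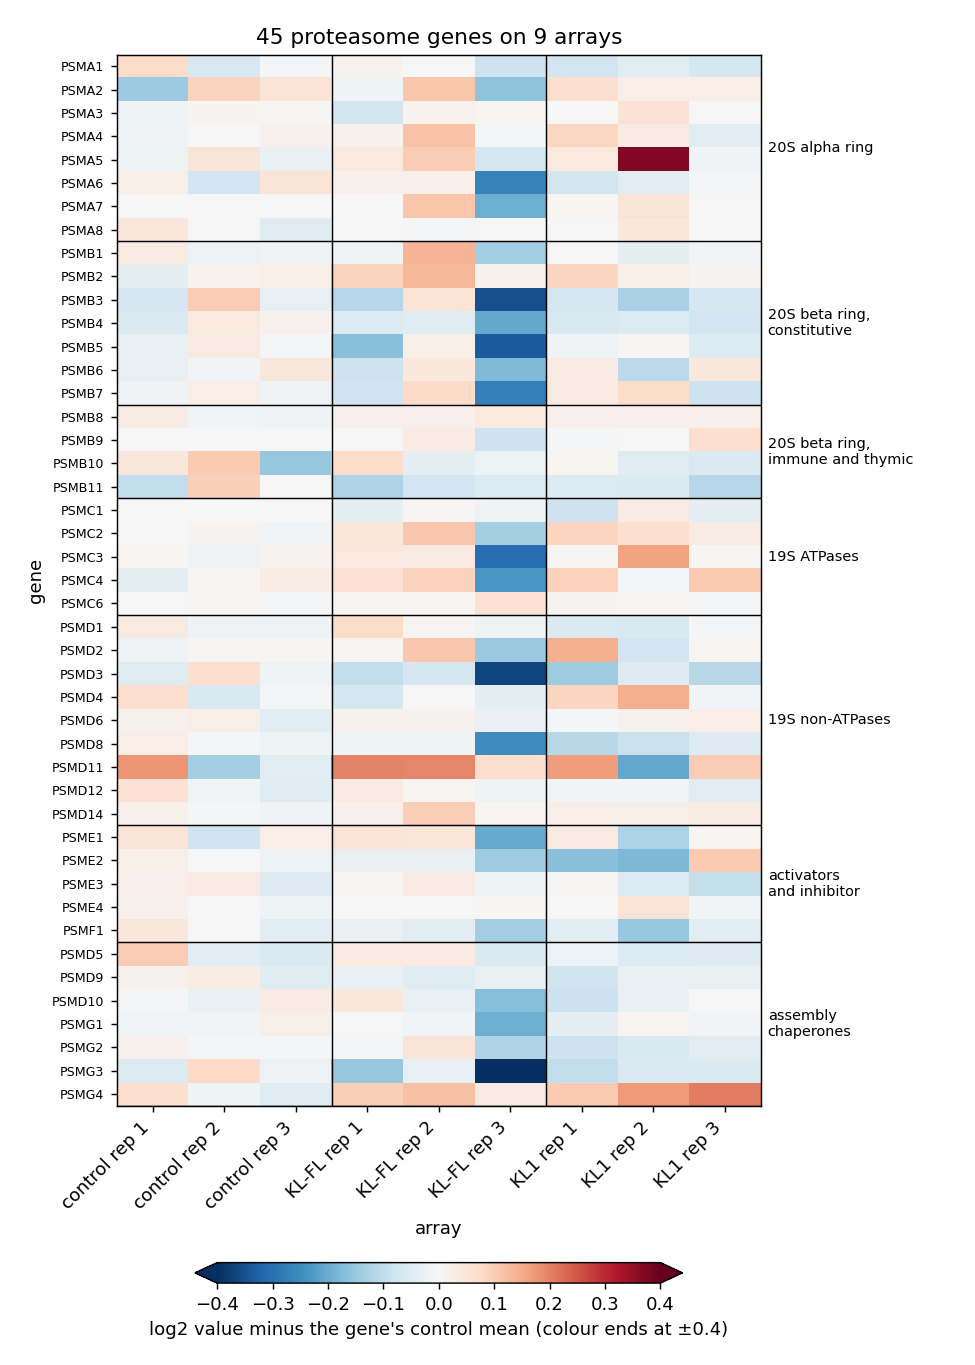
Log2 value minus the gene's mean over the 3 control arrays, as colour, for the 45 proteasome genes (rows, grouped by role) on the 9 arrays (columns); the labels 20S and 19S are the usual names of the core particle and the regulatory cap. In the column of KL-FL replicate 3, 37 of 45 cells lie below the control mean, and the single darkest red cell is PSMA5 on KL1 replicate 2, at 0.37.

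With KL1 the members were divided, 21 higher and 24 lower, and the median difference was -0.013 against 0.0026 over all genes, a sign that turned under quantile normalization, to 0.0028, and without control replicate 1, to 0.0012. The share lower was 53.3%, against 47.7% of all genes. The ATPases and the alpha ring lay mostly above control, with medians of 0.057 and 0.020, and the activators and assembly chaperones mostly below, at -0.049 and -0.043. Without KL1 replicate 2 the medians of the ATPases and the alpha ring were 0.0045 and 0.0025, and that of the activators -0.032. None of these medians carries a test.

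The 2 groups did not overlap in 2 members with KL-FL, PSMD3 and PSME2, both lower, which is 4.44% of members against 3.25% of all genes lower, 7.13% higher and 10.4% either. With KL1 it was 7 members, or 15.6% against 9.47% of all genes: PSMC2, PSMD14 and PSMG4 stood above every control, as 5.13% of all genes did, and PSMD3, PSMD8, PSMG2 and PSMG3 below, as 4.34% did. PSMD3 was the 1 gene on both lists, and both comparisons used the same 3 controls. Between KL-FL and KL1 no member separated, where 4.67% of all genes were higher, 2.21% lower and 6.88% either.

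The upstream sequence of 3 of these genes is printed with motif matches marked. They are PSMD3, the smallest p with KL-FL, PSMG4, the smallest p with KL1, and PSMC2, the ATPase gene that separated from control with KL1. Each line gives the 250 bases before the gene's start, 5′ to 3′ along the gene, from RefSeq on GRCh38.p14: PSMD3 at chr17:39980557-39980806 on the plus strand, PSMG4 at chr6:3258697-3258946 on the plus strand and PSMC2 at chr7:103347393-103347642 on the plus strand. Capitals mark matches, on either strand, to the antioxidant response element core TGACNNNGC, the CCAAT box CCAAT and the ETS core CCGGAAG.
PSMD3: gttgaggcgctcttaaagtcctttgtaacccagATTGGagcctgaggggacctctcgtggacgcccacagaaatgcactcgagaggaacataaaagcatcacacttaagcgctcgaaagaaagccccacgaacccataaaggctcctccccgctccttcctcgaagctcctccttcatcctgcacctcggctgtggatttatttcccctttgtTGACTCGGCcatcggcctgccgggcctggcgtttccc
PSMG4: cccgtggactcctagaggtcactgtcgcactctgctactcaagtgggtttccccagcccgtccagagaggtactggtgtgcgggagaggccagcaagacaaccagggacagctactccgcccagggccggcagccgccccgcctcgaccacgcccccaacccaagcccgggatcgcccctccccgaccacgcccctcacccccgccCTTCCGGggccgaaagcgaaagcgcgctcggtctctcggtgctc
PSMC2: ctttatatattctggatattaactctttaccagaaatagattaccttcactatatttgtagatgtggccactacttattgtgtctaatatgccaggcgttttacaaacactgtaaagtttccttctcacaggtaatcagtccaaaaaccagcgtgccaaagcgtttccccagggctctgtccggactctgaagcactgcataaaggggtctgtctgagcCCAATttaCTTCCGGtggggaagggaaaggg
PSMD3 holds an antioxidant response element core 37 to 29 bases before its start and a CCAAT box on the opposite strand 217 to 213 bases before it. PSMG4 holds neither, and has an ETS core on the opposite strand 44 to 38 bases before its start. PSMC2 has a CCAAT box 31 to 27 bases and an ETS core, on the opposite strand, 23 to 17 bases before its start.

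Windows of this length were found for 39 of the 45 members, some with several starts, 47 windows in all; PSMA7, PSMB1, PSMB6, PSMB7, PSMD4 and PSMG3 had none. The antioxidant response element core stood in the windows of 12 members, PSMA4, PSMB3, PSMB9, PSMD3, PSMD5, PSMD9, PSMD12, PSME1, PSME2, PSME4, PSMG1 and PSMG2, and in 25.5% of member windows against 10.9% of the 35116 windows of all genes. The CCAAT box stood in 36.2% of member windows against 32.0%, and the ETS core in 21.3% against 8.5%. No match of 1 motif overlapped a match of another in these windows. The 12 members with the antioxidant response element core had a median difference of -0.030 with KL-FL and -0.035 with KL1, and the 27 without it -0.010 and 0.013. These KL-FL medians, and those by motif below, include KL-FL replicate 3. Without that array PSMB9, PSME1 and PSMG2 of the 12 turned positive, at 0.016, 0.052 and 0.021. PSMA4, PSMD5, PSMD12 and PSME4 were positive with all arrays, at 0.041, 0.0049, 0.0090 and 0.0031. They stayed positive without it, at 0.065, 0.036, 0.022 and 0.0010. PSMB3, PSMD3, PSMD9, PSME2 and PSMG1 stayed negative. For the CCAAT box the medians with and without it were -0.022 and -0.0070 with KL-FL, and 0.013 and -0.028 with KL1. For the ETS core they were 0.0030 and -0.022 with KL-FL, and 0.0080 and -0.027 with KL1, so with KL1 these 2 motifs went the opposite way to the first. A match is a stretch of letters, not a bound site.

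The alpha ring gates the core. Of its 8 genes 6 were lower with KL-FL, or 2 without KL-FL replicate 3, and 2 with KL1, and none passed in either comparison. PSMA1, the alpha gene with the smallest p against control, read 10.1, 9.93 and 9.98 on control replicates 1 to 3, 10.0, 9.99 and 9.91 with KL-FL, and 9.92, 9.95 and 9.92 with KL1. Its groups overlapped throughout, with differences of -0.022 with KL-FL, or 0.00745 without KL-FL replicate 3, and -0.064 (SE 0.042) with KL1. PSMA5 read 7.83, 7.90 and 7.82 in control, 7.89, 7.95 and 7.78 with KL-FL, and 7.89, 8.22 and 7.84 with KL1. Its difference of 0.13 with KL1 came from KL1 replicate 2 and was 0.013 without that array. With KL-FL it was 0.023, or 0.070 without KL-FL replicate 3. PSMA8, the alpha subunit known from testis, read between 2.73 and 2.82 on all 9 arrays, with differences of -0.0029 and 0.015.

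The constitutive beta ring was the role with the lowest median with KL-FL, at -0.092, with 6 of 7 genes lower. Without KL-FL replicate 3 the median was -0.020 and 5 of 7 were lower, and PSMB2 was the exception with all arrays. With KL1 the median was -0.017, with 5 of 7 lower, and under quantile normalization it turned to 0.0062 with 2 of 7 lower. PSMB5, the chymotrypsin-like active site and the main target of proteasome inhibitors, read 8.54, 8.60 and 8.56 in control, 8.40, 8.59 and 8.23 with KL-FL, and 8.55, 8.57 and 8.51 with KL1. KL-FL replicate 2 lay among the controls while the other KL-FL arrays lay below all of them. The difference was -0.16 (SE 0.075, 95% interval -0.33 to 0.012) with KL-FL and -0.021 (SE 0.075) with KL1, and the KL-FL value was -0.072 without replicate 3.

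The other active sites followed the same arrays. PSMB6, the caspase-like subunit, read 9.94, 9.96 and 10.0 in control, 9.89, 10.0 and 9.79 with KL-FL, and 10.0, 9.86 and 10.0 with KL1. PSMB7, the trypsin-like subunit, read 9.23, 9.27 and 9.23 in control, 9.17, 9.32 and 8.97 with KL-FL, and 9.28, 9.32 and 9.16 with KL1. Both overlapped with control in both klotho groups, and their KL-FL differences of -0.072 and -0.092 came to -0.020 and -0.0019 without KL-FL replicate 3.

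PSMB4, a structural beta subunit, read 9.21, 9.31 and 9.29 in control, 9.22, 9.22 and 9.07 with KL-FL, and 9.21, 9.22 and 9.20 with KL1. Control replicate 1 lay among the klotho arrays and the other controls above all of them, giving differences of -0.10 (SE 0.047) and -0.064 (SE 0.047). The KL-FL value was -0.053 without replicate 3. PSMB2, another structural subunit, went the other way with KL-FL, at 9.98, 10.0 and 10.0 in control, 10.1, 10.2 and 10.0 with KL-FL, and 10.1, 10.0 and 10.0 with KL1. Its KL-FL difference was 0.081 (SE 0.039, 95% interval -0.0085 to 0.17), with KL-FL replicate 3 among the controls, and was 0.11 without that array. Of the remaining 2 genes of this ring, PSMB3 differed by -0.14 with KL-FL and -0.088 with KL1, and PSMB1 by -0.0050 and -0.017. The KL-FL differences without replicate 3 were -0.029 for PSMB3 and 0.061 for PSMB1.

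**Figure D3:**
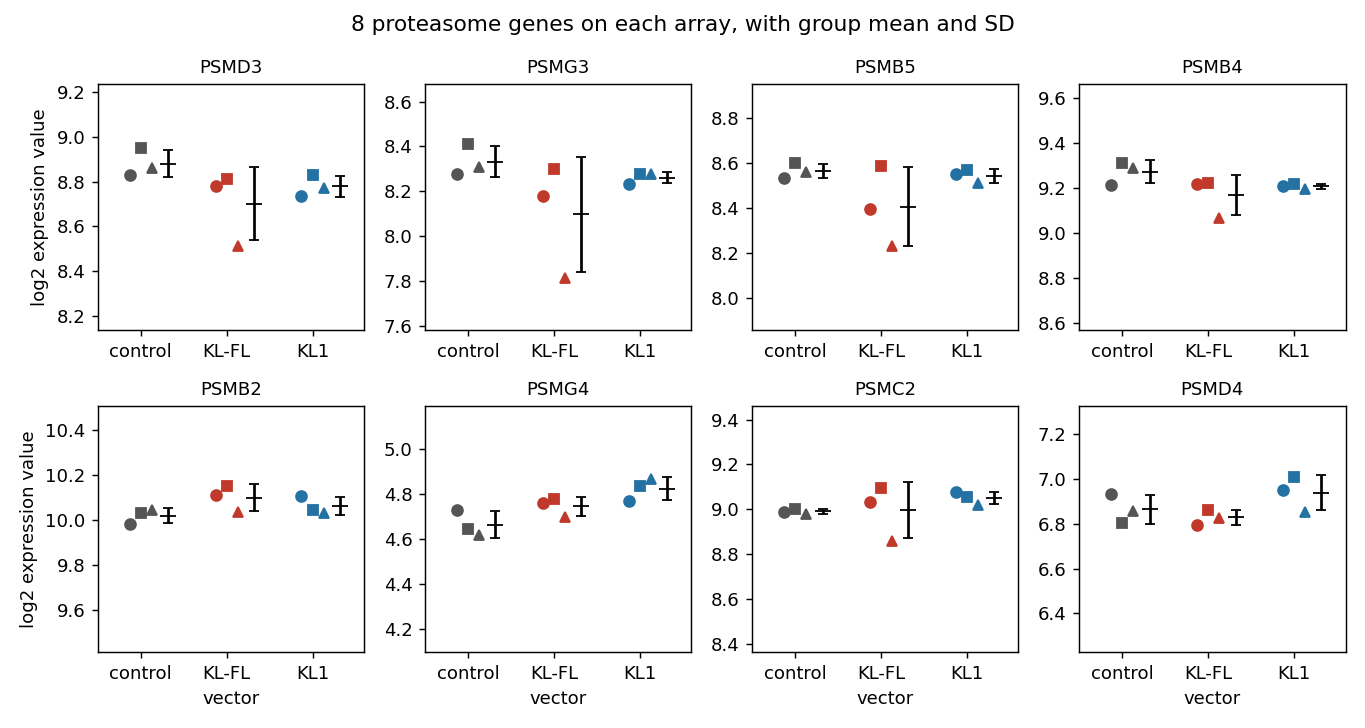
Log2 expression value (vertical axis, a span of 1.1 in each panel) of 8 proteasome genes on the 3 arrays of each vector; circles, squares and triangles are replicates 1, 2 and 3, and the black bars are the group mean ± SD (n = 3). In the top row KL-FL replicate 3 is the lowest point of each panel. The 3 KL1 points stand above every control for PSMG4 and PSMC2, and below every control for PSMD3 and PSMG3.

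The immune beta subunits stayed near their control readings, with differences from -0.034 to 0.027. PSMB8 read within the range of the leukocyte markers and PSMB9 above it, and the table has no detection call. Such low readings cannot show whether the transcript changed, here or in the comparison with the constitutive partners below. PSMB8 read 3.15, 3.11 and 3.10 in control, 3.14, 3.14 and 3.16 with KL-FL, and 3.14 on all 3 KL1 arrays, with differences of 0.027 and 0.021 (SE 0.027). PSMB9 read 4.40 on all 3 control arrays, 4.40, 4.43 and 4.32 with KL-FL, and 4.39, 4.40 and 4.46 with KL1. PSMB10 read 5.92, 5.98 and 5.72 in control, 5.95, 5.83 and 5.85 with KL-FL, and 5.88, 5.82 and 5.81 with KL1. The controls of PSMB10 alone spanned the readings of both klotho groups, and its differences were 0.0037 and -0.034. Without KL-FL replicate 3 the KL-FL difference was 0.017 for PSMB10 and 0.016 for PSMB9. The 3 probe sets of PSMB8 carry the same values on every array, as do the 3 of PSMB9, so they add no independent reading.

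Set beside their constitutive partners, the immune subunits differed from control by 0.027, -0.017 and 0.0037 with KL-FL for PSMB8, PSMB9 and PSMB10, and PSMB5, PSMB6 and PSMB7 by -0.16, -0.072 and -0.092. Without KL-FL replicate 3 these values were 0.0215, 0.0164 and 0.0174 against -0.0717, -0.0199 and -0.00191. With KL1 the values were 0.021, 0.018 and -0.034 against -0.021, -0.011 and 0.0084. PSMB11, the thymic beta subunit, read 2.94, 3.13 and 3.03 in control, 2.91, 2.96 and 2.98 with KL-FL, and 2.98, 2.97 and 2.92 with KL1. Control replicates 2 and 3 lay above all 6 klotho arrays, and the differences were -0.085 and -0.076 (SE 0.049). Without control replicate 2 they were -0.038 and -0.029.

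The ATPases of the cap form the ring that unfolds the substrate and threads it into the core. With KL1 4 of the 5 measured were higher, and with KL-FL 2 of 5, or 4 of 5 without KL-FL replicate 3. PSMC2 read 8.99, 9.00 and 8.98 in control, 9.03, 9.10 and 8.86 with KL-FL, and 9.08, 9.05 and 9.02 with KL1. The KL1 arrays all stood above the controls, by a mean of 0.061 (SE 0.056, adjusted p = 0.929). With KL-FL the difference was 0.0060, and 0.076 without replicate 3. PSMC3 read 7.85, 7.82 and 7.86 in control, 7.88, 7.88 and 7.54 with KL-FL, and 7.85, 8.01 and 7.85 with KL1. Its KL-FL difference of -0.076 was 0.038 without replicate 3, and its KL1 difference of 0.057 was 0.0045 without KL1 replicate 2.

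PSMC4 differed by -0.027 with KL-FL, which turned to 0.076 without KL-FL replicate 3, and by 0.063 with KL1, and PSMC1 by -0.019 and -0.028. PSMC6 gave a different size at its other probe set. At the brighter one, used here, the differences were 0.026 with KL-FL (0.0080 without replicate 3) and 0.0042 with KL1, and at the dimmer one 0.084 and 0.15, where KL1 read 7.53, 7.64 and 7.40 against 7.34, 7.32 and 7.44 in control. Which of them reads the PSMC6 transcript cannot be told from the table, and the gene's value is uncertain to that extent. The 2 probe sets of PSMC1 gave like values, with -0.016 and -0.036 at the dimmer one.

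Of the 9 non-ATPase cap subunits measured, 4 were lower in each comparison with control. PSMD3, a scaffold subunit of the lid, read 8.83, 8.95 and 8.86 in control, 8.78, 8.81 and 8.51 with KL-FL, and 8.74, 8.83 and 8.77 with KL1. Its 6 klotho arrays all stood below the 3 controls, although the highest of them and the lowest control both round to 8.83. The control mean was 8.88 ± 0.061 (SD, n = 3). The KL-FL mean was 8.70 ± 0.16 (SD, n = 3), and that of KL1 was 8.78 ± 0.045 (SD, n = 3). The differences were -0.18 (SE 0.075, 95% interval -0.35 to -0.0095, limma adjusted p = 0.689) with KL-FL and -0.10 (SE 0.075, adjusted p = 0.927) with KL1. Without KL-FL replicate 3 the KL-FL difference was -0.084, and it stayed negative when each of the 9 arrays was left out in turn, from -0.23 to -0.084.

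PSMD11, a lid subunit that clamps cap to core, had the widest spread of any member. It read 9.59, 9.27 and 9.37 in control, 9.61, 9.60 and 9.47 with KL-FL, and 9.57, 9.20 and 9.51 with KL1. Control replicate 1 lay with the high arrays and KL1 replicate 2 below all others, so its difference of 0.15 (SE 0.11) with KL-FL is within the spread between replicates. PSMD4, a receptor for ubiquitin chains, read 6.93, 6.80 and 6.86 in control, 6.79, 6.86 and 6.83 with KL-FL, and 6.95, 7.01 and 6.85 with KL1. It overlapped with control in both groups, at -0.035 and 0.074 (SE 0.048), the second 0.039 without KL1 replicate 2. Its other, dimmer probe set gave 0.008 with KL-FL and 0.039 with KL1.

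PSMD8 stood below control on all KL1 arrays, at 9.71, 9.74 and 9.77 against 9.85, 9.82 and 9.80, a difference of -0.084 (SE 0.060). PSMD14, the lid enzyme that cuts ubiquitin chains from the substrate, read 9.02, 9.00 and 8.99 in control, 9.02, 9.10 and 9.01 with KL-FL, and 9.03 on all KL1 arrays, 0.027 (SE 0.032) above control. PSMD1, the scaffold of the cap's base, differed by 0.020 (0.039 without KL-FL replicate 3) and -0.042. Of the other members of this role PSMD2, PSMD6 and PSMD12 differed from control by -0.010, 0.0026 and 0.0090 with KL-FL and 0.025, 0.013 and -0.021 with KL1. Their KL-FL differences without replicate 3 were 0.058, 0.017 and 0.022.

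Activators open the core gate without ubiquitin, and PSMF1 was first known as an inhibitor of the core. PSMF1 read 8.54, 8.49 and 8.45 in control, 8.46, 8.45 and 8.35 with KL-FL, and 8.45, 8.34 and 8.45 with KL1. The highest klotho array lay above the lowest control, and the differences were -0.072 and -0.081 (SE 0.045). The first was -0.038 without KL-FL replicate 3 and the second -0.046 without KL1 replicate 2. PSME1 and PSME2, the interferon-induced partners of 1 activator ring, differed by -0.033 and -0.069 with KL-FL and by -0.027 and -0.081 with KL1. Without KL-FL replicate 3 the KL-FL differences were 0.052 and -0.032. PSME2 read 8.06, 8.04 and 8.02 in control and 8.01, 8.01 and 7.90 with KL-FL, just below every control, while its KL1 arrays read 7.87, 7.86 and 8.14, on both sides of them. PSME3, the nuclear activator, differed by 0.0063 and -0.049, and PSME4, known for its role on chromatin, by 0.0031 and 0.015. The KL-FL values were 0.018 and 0.0010 without replicate 3.

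The assembly chaperones held the lowest difference with KL-FL and the highest with KL1. PSMG3 and PSMG4 form a dimer that helps the alpha ring close, and their readings parted. PSMG3 read 8.28, 8.41 and 8.31 in control, 8.18, 8.30 and 7.81 with KL-FL, and 8.23, 8.28 and 8.28 with KL1. With KL-FL it gave the lowest difference of any member, -0.24 (SE 0.11, 95% interval -0.48 to 0.0053), which was -0.092 without replicate 3, and with KL1 -0.071 (SE 0.11), just below every control. PSMG4 read 4.73, 4.65 and 4.62 in control, 4.76, 4.78 and 4.70 with KL-FL, and 4.77, 4.84 and 4.87 with KL1. All 3 KL1 arrays and 2 of the 3 KL-FL arrays stood above every control.

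The PSMG4 difference was 0.16 (SE 0.042, 95% interval 0.064 to 0.26, fold 1.12) with KL1, with an unadjusted p of 0.00451 that became an adjusted p of 0.927 over all genes in limma. With KL-FL it was 0.082 (SE 0.042, adjusted p = 0.709). Over the 9 arrays left out in turn the KL1 value ran from 0.14 to 0.19 and the KL-FL value from 0.058 to 0.12. It kept its sign in each comparison with control under every setting tried, and it passed over all genes under none of them. Its probe set reads near 4.7 and the table has no detection call.

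PSMG2, which pairs with PSMG1 in an earlier step, stood below control on all KL1 arrays, at 8.92, 8.94 and 8.96 against 9.02, 8.99 and 8.99, a difference of -0.063 (SE 0.043). With KL-FL it overlapped with control, at -0.027, and 0.021 without replicate 3. PSMG1 differed by -0.068, or -0.0045 without KL-FL replicate 3, and -0.013. The chaperones of the cap's base, PSMD5, PSMD9 and PSMD10, differed by 0.0049, -0.036 and -0.051 with KL-FL and -0.043, -0.047 and -0.038 with KL1. Without KL-FL replicate 3 the KL-FL differences of PSMD5 and PSMD10 were 0.036 and 0.0080. PSMD9 read 5.86, 5.87 and 5.79 in control, 5.81, 5.80 and 5.81 with KL-FL, and 5.76, 5.81 and 5.81 with KL1, with control replicate 3 among the klotho arrays.

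**Figure D4:**
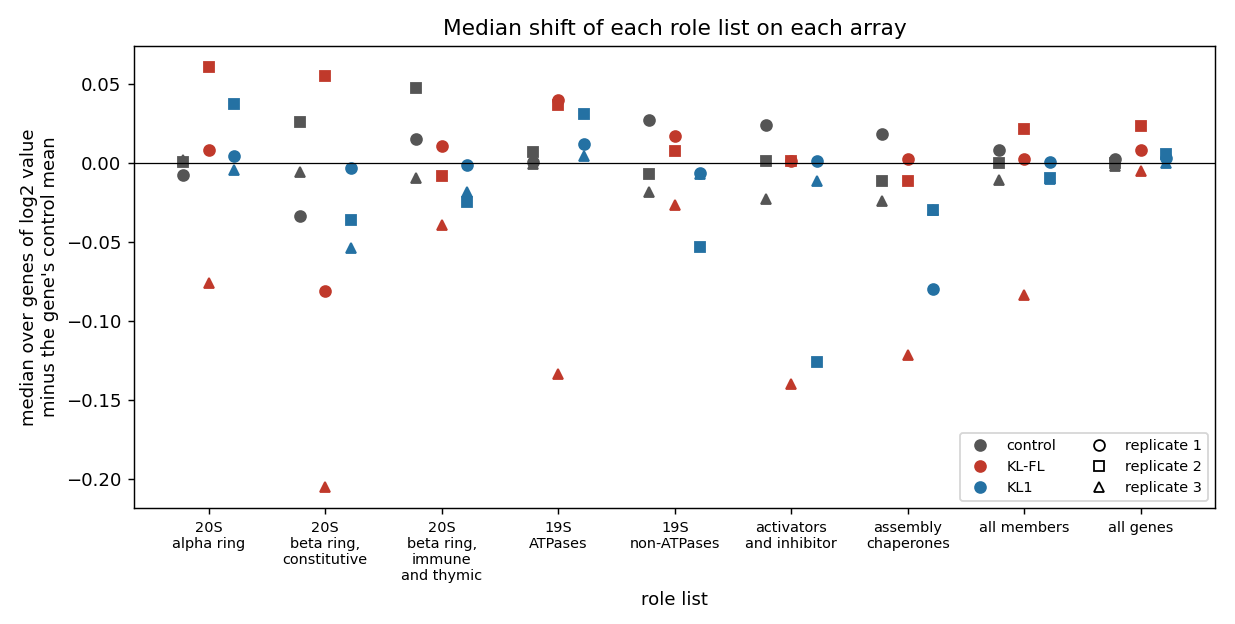
Median over the genes of each role list of the log2 value minus the gene's control mean (vertical axis), 1 point per array, with colour for the vector and shape for the replicate; all members and all genes stand at the right. KL-FL replicate 3 is the lowest point of 6 of the 7 role lists, and at -0.21 in the constitutive beta ring it is the lowest of all.

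Between full-length klotho and the KL1 subdomain no proteasome gene passed in limma, with a smallest adjusted p of 0.855, and neither did any gene of the table (0 of 17958, or 0%). Among the 906 genes with an unadjusted p below 0.05, or 5.05%, 1.55% of the table lower and 3.49% higher, the 1 member was PSMD4, lower with KL-FL. With array weights 1 gene of the table passed, and it was not a member. PSMD4 differed by -0.11 between KL-FL and KL1 (SE 0.048, adjusted p = 0.855), with KL-FL replicate 2 above the lowest KL1 array. It differed by -0.15 to -0.074 with each array left out in turn, the last without KL1 replicate 2. Its dimmer probe set read 3.61, 3.71 and 3.61 with KL-FL and 3.64, 3.64 and 3.74 with KL1. The 95% intervals ran from -0.40, for PSMG3, to 0.37, for PSMD11, and 33 members had theirs within 0.2 of no difference. KL-FL was the lower group in 27 of 45 members, or 60.0% against 45.5% of all genes, and in 13 of 45 without KL-FL replicate 3. PSMB5, PSMG3 and PSMC3 differed by -0.14, -0.16 and -0.13 with all arrays, and by -0.051, -0.021 and -0.018 without that replicate.

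Genes that work with the proteasome but carry other names were read from 4 lists. None of their measured genes passed over all genes in either comparison with control, where 0.00557% of the table passed. The lists held 12, 6, 11 and 9 measured genes. Before adjustment, at p under 0.05 in limma, 3 of these genes were lower with KL-FL. They were NFE2L3, 1 of the 6 NRF1 axis genes, and HLA-C and IRF1, 2 of the 9 class I genes. Over all genes 2.28% were lower and 4.88% higher. With KL1 the count was 0, against 2.11% of all genes lower and 2.99% higher. Of 12 partners of the proteasome, 8 were higher with KL-FL and 6 with KL1. The shares lower were 33.3% and 50%, against 42.6% and 47.7% of all genes. POMP, the chaperone that completes the core, read 9.11, 9.12 and 9.11 in control, 9.11, 9.17 and 9.10 with KL-FL, and 9.21, 9.09 and 9.09 with KL1, with a difference of 0.013 in each comparison (0.026 for KL-FL without replicate 3). SEM1, a small lid subunit, differed by 0.11 with KL-FL, where replicate 3 read 8.02 and the others 7.86 and 7.78 against 7.74 to 7.82 in control, and by -0.053 with KL1. Without that array the KL-FL difference was 0.040. ECPAS, a proteasome adaptor, differed by 0.069 and 0.025, USP14, a deubiquitinase bound to the cap, by 0.034 (0.065 without KL-FL replicate 3) and -0.038, and ZFAND5, a proteasome-binding protein, by -0.081 and -0.12.

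Of the NRF1 axis 6 of 8 genes were measured. NFE2L1 itself read 8.21, 8.31 and 8.12 in control, 8.14, 8.18 and 8.13 with KL-FL, and 8.21, 8.22 and 8.13 with KL1, with differences of -0.065 and -0.029 (SE 0.050) and groups that overlapped. NFE2L1 is controlled largely as a protein, by release from the endoplasmic reticulum and cleavage, and its RNA does not report that step. NFE2L2 differed by 0.038 and 0.011, and MAFF, a small partner of these factors, by -0.016 (-0.0097 without KL-FL replicate 3) and 0.080. NFE2L3 differed by -0.12 (SE 0.049, adjusted p = 0.689) with KL-FL, or -0.078 without replicate 3, and -0.072 with KL1.

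Of 11 measured ubiquitin and shuttle genes 8 were lower with KL-FL and 5 with KL1, or 72.7% and 45.5%, against 42.6% and 47.7% of all genes. The KL-FL count includes replicate 3, where their median shift from control was -0.095, against 0.0085 and 0.023 on replicates 1 and 2. NPLOC4, a cofactor that helps the segregase VCP extract proteins from the endoplasmic reticulum, differed by -0.065 and -0.058 and was below every control on all KL1 arrays. The ubiquitin-activating enzymes UBA1 and UBA6 differed by -0.036 and 0.064 with KL-FL and -0.044 and 0.028 with KL1, and the KL-FL value of UBA6 was 0.033 without replicate 3. Class I presentation, which takes its peptides from the proteasome, had 9 of 11 genes measured, 7 lower with KL-FL and 6 with KL1, or 77.8% and 66.7%. The median shift of these genes was -0.050 and 0.013 on KL-FL replicates 1 and 2, and -0.18 on replicate 3. HLA-C read 9.58, 9.62 and 9.63 in control, 9.48, 9.55 and 9.26 with KL-FL, and 9.46, 9.53 and 9.53 with KL1. All 6 klotho arrays lay below the controls, at -0.18 (SE 0.066) and -0.099 (SE 0.066), with adjusted p = 0.688 and 0.927. The KL-FL difference was -0.092 without replicate 3. IRF1, an interferon-induced transcription factor that drives the immune subunits, differed by -0.21 (SE 0.081, adjusted p = 0.688) with KL-FL and 0.016 with KL1. All 3 KL-FL arrays of IRF1, at 5.07, 5.16 and 5.15, lay below its controls at 5.23, 5.48 and 5.28. TAPBP, which loads peptides, differed by -0.068 and -0.063, and the first was -0.0093 without KL-FL replicate 3. The KL1 value was -0.020 with KL1 replicate 2 left out.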

How the data were processed

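RNA of 9 samples was read on a whole-transcript human array. Log2 expression values of 33297 probe sets, as the authors deposited them, were used without change. Partek 6.6 is named per the submitters' processing notes. How background, normalization and summary were done, and the log base, is not given in the sources used here; log2 was read from the span of the values. Of the probe sets, 19181 named 1 gene in the platform annotation, 2055 several and 12061 were unnamed here. The brightest probe set stood for each of 17958 genes.

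In R 4.3.3, limma 3.58.1 fitted the 3 group means to every gene, without covariates and with 6 residual degrees of freedom, and moderated the variances with eBayes. Tests were two-sided, p was adjusted over the whole table by Benjamini-Hochberg, and the threshold was 0.05. The fit was tested on simulated data. Deviations of same-numbered arrays of control and KL1 correlated at 0.113, 0.322 and 0.186, so the numbers may pair them. With KL-FL the correlations ran from -0.0955 to 0.0974, the last for replicate 1 with control and close to the 0.113 above. The number of arrays limits the precision. The members and gene lists were chosen with earlier results of these data known. Readings on every array are given for any member past the threshold, the 8 smallest p in each comparison, the catalytic pairs and the smallest p in each role, and further members were added after their values were seen. Alternatives covered scaling, a filter on dim genes, probe sets, the arrays fitted, array weights, an intensity trend, the replicate block and each array left out. Promoter windows came from RefSeq.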

Additional observations from a re-analysis of the deposited data

How the results depend on the processing

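No proteasome gene passed over all genes in limma in any comparison, in the deposited values or under any of the 17 alternatives. The smallest adjusted p was 0.0667 for PSMB5 with KL-FL under array weights. That fit weighted KL-FL replicate 1 by 6.76 and replicates 2 and 3 by 0.554 and 0.265. The count over the whole table was less stable. For KL-FL it was 1 of 17958 genes, and 523 with array weights. It was 0 with the replicate block, 0 with the 6 arrays compared and 0 to 1 with an array left out. For KL1 it was 1, and 2 with array weights, 0 with the replicate block and 0 to 1 with an array left out; between the klotho vectors it was 0, and 1 with array weights. The block changed no other call.

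With an array left out the members lower than control with KL-FL numbered 17 to 34 and their median ran from -0.0526 to 0.0172; against KL1 they numbered 13 to 34, with a median from -0.0468 to 0.0146. The lowest counts and the positive medians came without KL-FL replicate 3, and the most negative medians without KL-FL replicate 2. The call for KL-FL was lost without any 1 control, KL-FL replicate 1, or KL1 replicate 1 or 3, and that for KL1 without any 1 control or KL1 array. With array weights 20 members were lower with KL-FL and the median was 0.00597. With KL1 the count stayed between 22 and 28 with an array left out. Of the 45 members, 22 kept 1 sign under all settings with KL-FL and 27 with KL1. Medians of role lists under these settings, and differences of single genes outside the naming rule without an array, were added after seeing the data. The number of arrays and the absence of detection calls limit what dim genes can show.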
